A study of Mus musculus with 12 samples.

Results

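MTΔECad cells, a mesenchymal mouse breast cancer line, passed through a distinct expression state on day 3 of an adipogenic differentiation protocol. That state is described here from 2 of the 12 RNA sequencing libraries of the time course. The 2 day 3 libraries were compared with the 4 libraries of 0 h and 6 h, called the early pool, and separately with the 4 libraries of day 7 and day 10, called the late pool. A gene belonged to the state when it differed from both pools in the same direction, and the 2 day 5 libraries served to follow it afterwards. All groups were the same line, seeded at 20000 cells per cm2, and each time point had 2 libraries from 2 independent experiments. By the protocol, cells first received 200 ng/ml of human recombinant BMP2 for 3 days, so the early pool held cells at the start (0 h) and after 6 h, and the day 3 cells stood at the end of the period with BMP2 alone. BMP2 with 2 µM rosiglitazone, an agonist of the fat cell receptor PPARγ, followed for 4 days, so day 5 and day 7 fell in or at the end of that period. Rosiglitazone alone for the last 3 days led to day 10. The labels do not say whether the day 3 cells were harvested before rosiglitazone was added. Time-matched cells without the protocol were not analysed here. The effects of treatment, of days in culture and of cell density cannot be told apart.

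BMP2 binds paired type I and type II receptors, which activate SMAD1 and SMAD5 to switch on targets such as the Id genes and the inhibitory SMADs. The same ligands drive mesenchymal cells towards bone, cartilage or fat, and PPARγ directs the last step to fat cells. Growing cells draw on glycolysis, sterol synthesis and mitochondrial respiration, while the transcription factor ATF4 answers shortage of amino acids or stress in the endoplasmic reticulum, and lysosomes recycle cell material.

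Library totals ran from 12820802 to 17570366 counts, and the day 3 libraries held 13904510 and 13175402. Levels are given in CPM, read counts scaled to a common library size, as mean ± SD with n = 4 for a pool and n = 2 for day 3. The SD of a pool includes the difference between its 2 time points. The line's label was checked first. Cdh1, the E-cadherin gene, was at 0.508 and 0.855 CPM in the day 3 libraries and at 0.2603 to 1.09 CPM in the early pool, while Vim, the gene of the mesenchymal filament vimentin, stood at 2905 and 2007 CPM at day 3. Of 23 white adipocyte markers tested, 8 were higher at day 3 than in the early pool and 1 was lower (all genes: 35.3% and 36.7%). The share higher was thus close to that of all genes. All 23 were lower than in the late pool (all genes: 38.4%). Fabp4, whose product carries fatty acids in mature adipocytes, was at 1.84 and 1.32 CPM at day 3 against 10089.6, 8322, 19233 and 18418 CPM in the late pool. Mki67, a marker of dividing cells, was at 11.2 ± 4.57 CPM at day 3, 984 ± 23.8 CPM in the early pool and 9.31 ± 1.8 CPM in the late pool. The white adipocyte list summed to 658 and 807 CPM in the day 3 libraries against 144 to 190.1 CPM early.

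Of 12740 genes tested, 3447 (27.1%) belonged to the day 3 state. In edgeR's quasi-likelihood test, with a call at an adjusted p below 0.05, 1808 genes (14.2%) were higher at day 3 than both pools and 1639 (12.9%) were lower. The single comparisons were broad: against the early pool 4500 genes (35.3%) were higher and 4675 (36.7%) lower, and against the late pool 4900 (38.5%) were higher and 4895 (38.4%) lower. Both comparisons use the same 2 day 3 libraries, so an odd value there enters both. A further 3672 genes were called in both in opposite directions, so that their day 3 level lay between the ends. At least a 2-fold difference from both pools was found for 464 genes in the higher direction (3.64%) and for 326 in the lower (2.56%). Both day 3 libraries lay above all 8 pool libraries for 1650 (91.3%) of the genes called higher, and below all 8 for 1559 (95.1%) of those called lower. The calls used these same libraries, so these shares were partly built in. The gene just inside the threshold was Lyrm9 (log2 fold changes 0.43 and 0.37, larger adjusted p = 0.04983) and the one just outside was Maff (0.22 and 1.24, 0.05).

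**Figure D1:**
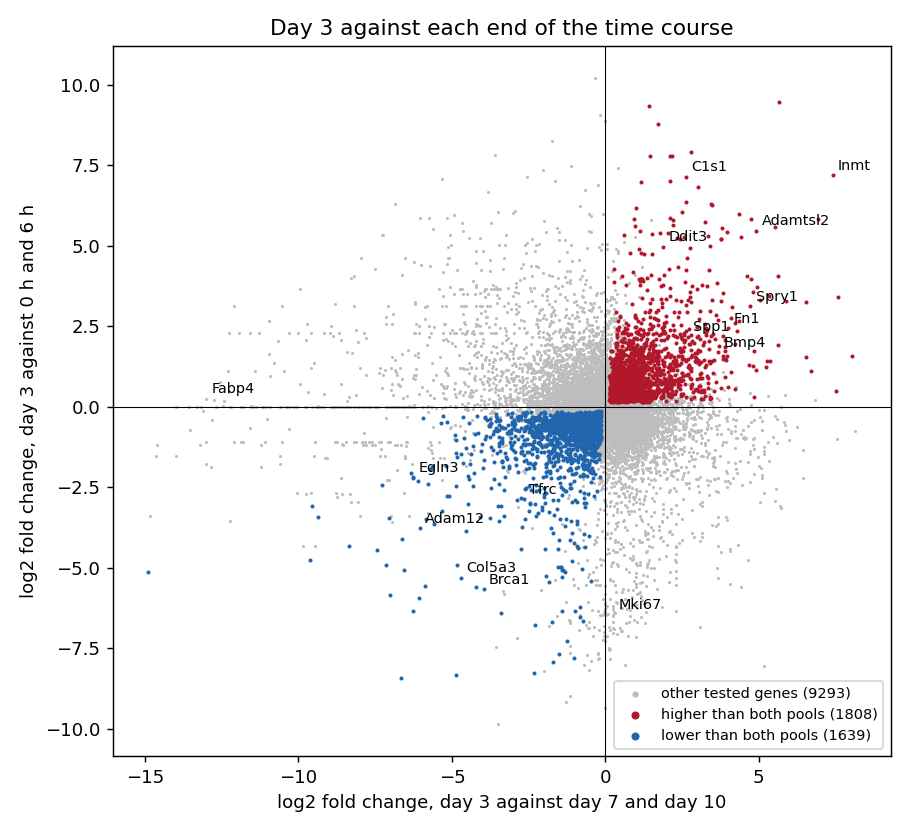
Each point is 1 of 12740 genes, with the log2 fold change of day 3 against the late pool on the x axis and against the early pool on the y axis. The 1808 genes higher than both pools lie at the upper right in red, the 1639 lower than both fill the lower left in blue, and Fabp4 and Mki67 lie near an axis because they differ from 1 pool alone.

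Most genes that stood at least 2-fold from both pools at day 3 had moved back by day 5. Among the 464 genes at least 2-fold higher at day 3, 353 (76.1%) had moved more than halfway to the late pool by day 5, with a median of 0.726 of the way. Of the 464, 117 had gone past the late level and 13 stood further out than at day 3. Of the 326 genes at least 2-fold lower, 258 (79.1%) were over halfway back, with a median of 0.755, while 54 were past the late level and 14 further out. The ends themselves differed: from the early to the late pool 5715 of all tested genes rose (44.9%) and 5409 fell (42.5%). Of the 464 higher genes, 146 ended above their early level, 153 below it and 165 without a called difference. The corresponding numbers for the 326 lower genes were 160, 94 and 72. Counts of 3 or fewer stood in the early pool for 21 and in the late pool for 10 of the higher genes, and at day 3 for 33 of the lower genes. Such genes passed the filter on low counts through the groups where they were high, so their difference was partly built in.

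Among the genes with the largest change from both sides were secreted and enzyme genes that were close to 0 at either end. These were ranked only among genes with both day 3 libraries outside all 8 pool libraries. For genes named from that ranking, here and below, the separation of the libraries was fixed by the choice. Inmt, which encodes an N-methyltransferase of small amines, was at 20.1 and 26.1 CPM in the day 3 libraries, at 0.0734, 0.0618, 0.195 and 0.434 CPM in the early ones and at 0.138, 0.247, 0.179 and 0 CPM in the late ones. No pool library came near the day 3 pair, and at day 5 the values were back at 0.0622 and 0.776 CPM. Its log2 fold change was 7.19 (SE 0.36) against the early pool (edgeR adjusted p = 1.14e-10) and 7.41 (SE 0.38) against the late pool (edgeR adjusted p = 9.57e-11). Adamtsl2, which encodes a secreted glycoprotein of microfibrils, was at 47.9 and 34.7 CPM at day 3, 0.367, 0.866, 0.651 and 1.899 CPM in the early and 1.59, 3.09, 0.538 and 0.996 CPM in the late libraries. F13a1, the catalytic subunit of the clotting transglutaminase factor XIII, rose from 16.9 CPM to 735 and 528 CPM and was at 44.03, 59.5, 39.6 and 43.6 CPM late. On the log2 scale, F13a1 stood 5.21 (SE 0.41) above the early and 3.76 (SE 0.38) above the late pool. Gpnmb, a transmembrane glycoprotein of lysosome-related organelles, went from 0.3099 ± 0.0857 CPM to 18.6 ± 0.679 CPM and then to 1.07 ± 0.952 CPM. Rragd, a Rag GTPase that signals amino acid supply at the lysosome, followed the same course with 1.15 ± 0.1602, 13.5 ± 1.45 and 1.03 ± 0.568 CPM. Cbs, the enzyme that starts transsulfuration of homocysteine, had 0.685 ± 0.2497, 11.4 ± 1.86 and 0.457 ± 0.148 CPM. These 3 genes rose by between 3.55 and 5.85 on the log2 scale against the early pool, and by day 5 Gpnmb was down to 4.41 and 5.37 CPM. Lcn2, the gene of the iron-carrier binding protein lipocalin 2, was at 18.9 and 24.1 CPM at day 3 but still at 23.9 and 25.2 CPM at day 5, before 3.05, 2.22, 4.75 and 2.76 CPM late. Cdsn, the gene of the cell adhesion protein corneodesmosin, reached 193 and 289 CPM, against at most 8.10 CPM early and 32.5 CPM late.

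**Figure D2:**
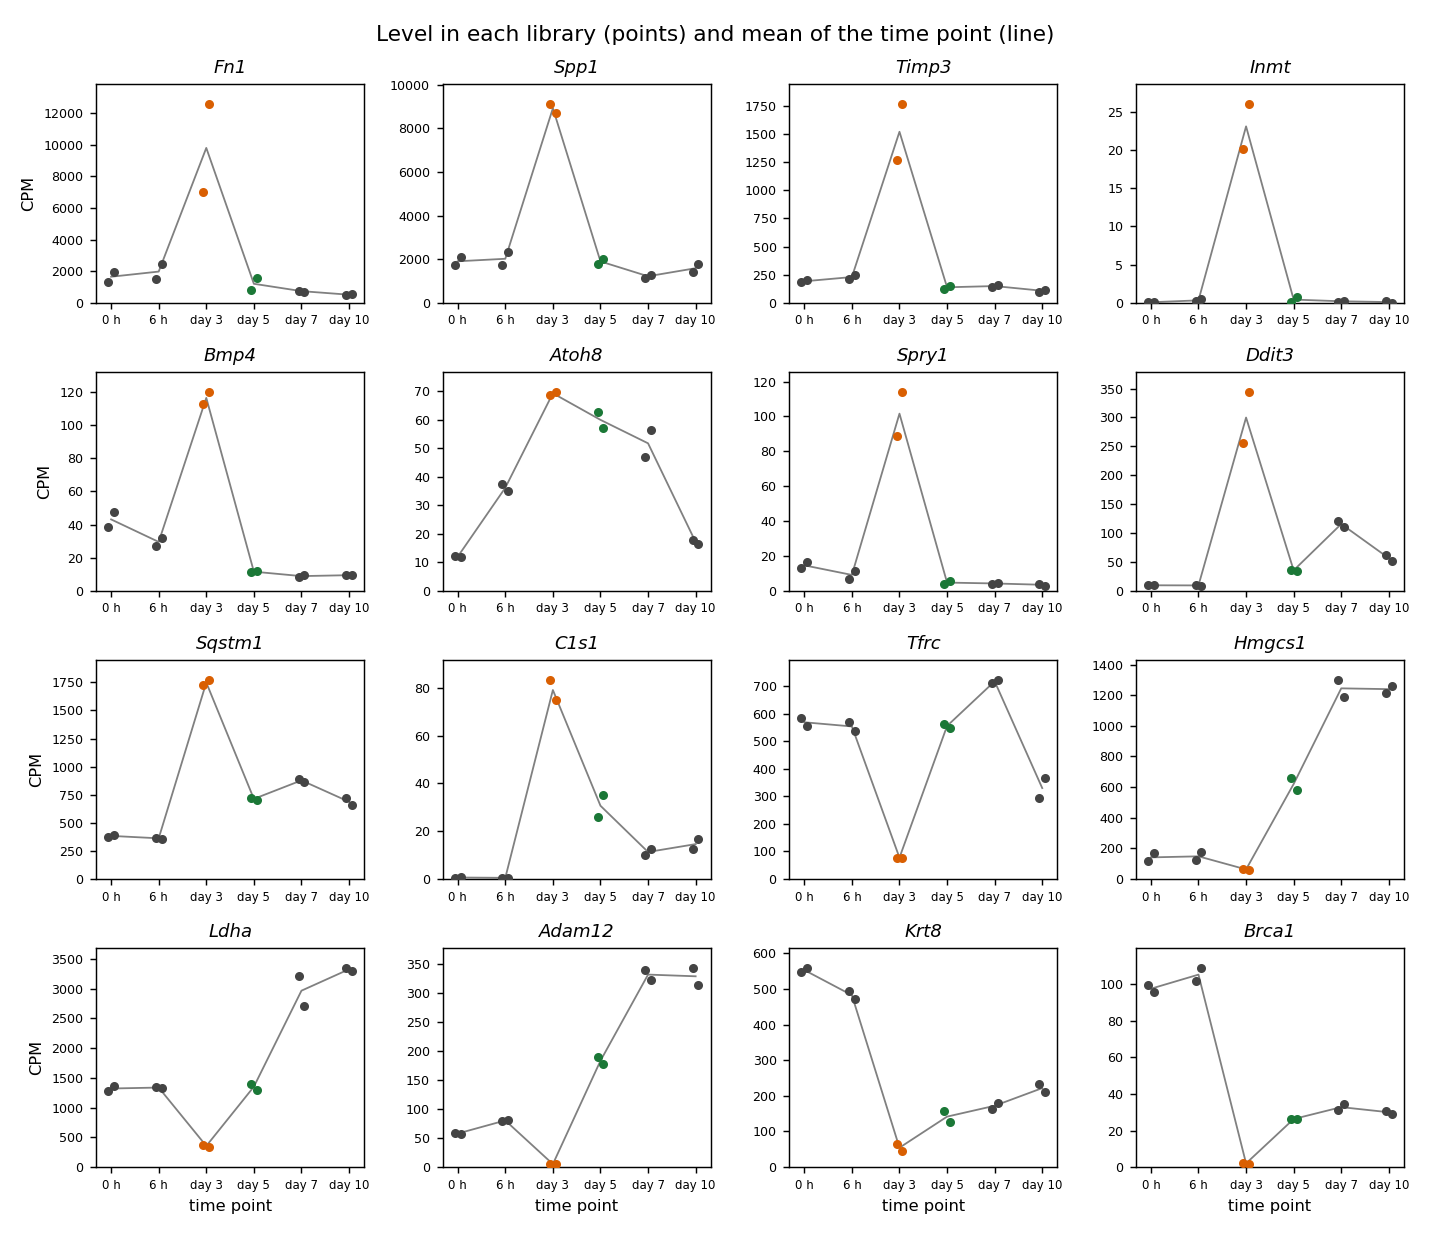
CPM in each of the 12 libraries (points) for 16 genes, with the mean of each time point as a line, day 3 in orange and day 5 in green, and every y axis starting at 0. In the 10 genes from Fn1 to C1s1 both day 3 points lie above all points of 0 h, 6 h, day 7 and day 10, and in the 6 genes from Tfrc to Brca1 they lie below them.

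The genes with the largest falls from both sides included matrix, iron, lipid and DNA repair genes. Col5a3, a chain of type V collagen, was at 1.08 and 0.921 CPM at day 3, 36.2, 47.9, 35.2 and 40.2 CPM in the early libraries and 20.8, 20.2, 35.7 and 30.9 CPM in the late ones. It was 5.30 (SE 0.20) lower on the log2 scale than the early pool and 4.69 (SE 0.20) lower than the late pool. Adam12, a membrane metalloprotease of mesenchymal cells, was at 4.89 and 5.13 CPM at day 3 against 58.8, 56.7, 79.3 and 81.5 CPM early and 341, 323, 344 and 314 CPM late, so the day 3 pair lay below every other library. Brca1, a DNA repair gene, was at 2.35 and 1.64 CPM, while no early library fell under 95.7 CPM and no late one under 29.3 CPM. Asf1b, a histone chaperone of replicating cells, dropped to 1.08 and 0.987 CPM from 87.9 ± 4.11 CPM, and the late pool held 11.4 ± 4.11 CPM. Pkmyt1, a kinase that restrains CDK1, was at 0.8404 ± 0.0209 CPM at day 3, with 12.1 ± 0.463 CPM before and 19.9 ± 1.62 CPM after. Tfrc, the transferrin receptor that brings iron into cells, stood at 77.8 and 76.6 CPM at day 3, 583, 555, 569.8 and 537 CPM in the early and 712, 723, 293 and 367 CPM in the late libraries. That dip was similar from both sides, with log2 fold changes of -2.86 (SE 0.09) and -2.66 (SE 0.09). Ppa1, a cytosolic pyrophosphatase, had 208 ± 13.7, 22.1 ± 0.687 and 903 ± 253 CPM. Fabp5, a fatty acid binding protein, had 29.2 ± 1.01, 5.94 ± 0.675 and 416 ± 73.3 CPM, so Ppa1 and Fabp5 dipped at day 3 before a rise above their starting level.

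The matrix of the day 3 cells was marked by a few very abundant glycoproteins. Fn1, which encodes fibronectin, was at 6988 and 12600.0 CPM at day 3, 1339, 1953, 1495 and 2449 CPM in the early and 763, 707, 488 and 529.6 CPM in the late libraries. All 8 pool libraries were lower than both day 3 libraries, although these differed from each other. Its log2 fold change was 2.44 (SE 0.36) against the early pool (edgeR adjusted p = 0.000853) and 4.00 (SE 0.38) against the late pool (edgeR adjusted p = 6.26e-05), and the gene took up 0.791% and 1.45% of all day 3 counts. Spp1, the gene of the bone and inflammation glycoprotein osteopontin, was at 9139.8 and 8711 CPM at day 3 against 1726, 2079, 1728 and 2307 CPM early and 1141, 1290.3, 1405 and 1765 CPM late. It stood 2.19 (SE 0.12) above the early and 2.69 (SE 0.12) above the late pool, and its day 5 libraries were already back at 1798 and 1994 CPM. Per kilobase of gene, Spp1 had 5383 and Fn1 1163 CPM at day 3, the highest levels among the glycoproteins listed. Thbs2, a matricellular thrombospondin, went from 1.05 ± 0.5797 to 46.2 ± 15.99 and then 2.94 ± 1.096 CPM. Mgp, the inhibitor of calcification matrix Gla protein, was at 106 and 59.7 CPM at day 3, with 2.72, 8.35, 2.47 and 14.1 CPM early and 3.53, 6.61, 26.3 and 30.8 CPM late. Its log2 fold change of 2.77 (SE 0.56) against the late pool was 1.54 against day 10 alone, which did not pass. Of 26 matrix glycoproteins and proteoglycans tested, 5 were higher than both pools and 3 lower, close to the shares of all genes, and the median log2 fold changes were 0.26 and -0.04.

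Collagen genes went the other way in part. Of 29 genes for collagens and their processing, 9 were lower than both pools and 2 higher (all genes: 12.9% and 14.2%). Their median log2 fold changes were -0.78 and -0.32 where all tested genes had 0.00 and 0.01. Col6a3, a chain of the collagen VI that surrounds fat cells, was at 89.04 and 48.2 CPM at day 3, 236 ± 11.8 CPM early and 1475 ± 89.7 CPM late. Col6a1, another chain of collagen VI, was the list's most abundant member per kilobase. It rose from 291 CPM early to 1881 CPM at day 3 and 5314 CPM late, and so lay between the ends. Summed over the list, the day 3 libraries held 7193 and 8236 CPM, against 7537 to 8415 CPM early and 13490 to 15590 CPM late. Loxl2, a cross-linking enzyme of collagen, had 0 counts in the day 3 libraries, which makes it at least 6.98-fold lower than the early pool and at least 6.39-fold lower than the late pool against a floor of 3 counts over the day 3 libraries. Among 24 proteases and inhibitors, 7 were higher than both pools and 3 lower (all genes: 14.2% and 12.9%). Timp3, a matrix-bound inhibitor of metalloproteases, was at 1269.9 and 1772 CPM at day 3, 181, 201, 209 and 249 CPM early and 142, 155, 97.4 and 116 CPM late. The day 3 libraries lay far above the rest, with log2 fold changes of 2.86 (SE 0.14) and 3.60 (SE 0.15). Serpine2, which inhibits thrombin and plasminogen activators, rose to 343 ± 24.2 CPM from 124 ± 37.2 CPM and ended at 44.4 ± 16.9 CPM. Among 19 genes of the TGF-beta pathway, 6 were higher and 2 lower than both pools (all genes: 14.2% and 12.9%). Tgfb3, a TGF-beta ligand, went from 54.1 ± 11.9 to 169 ± 31.4 and back to 53.3 ± 16.2 CPM, and Tgfbi, a matrix protein induced by TGF-beta, from 1.56 ± 0.828 to 12.7 ± 3.02 and 1.55 ± 0.433 CPM.

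BMP pathway genes were followed from ligand to target, since BMP2 was the only agent named for the first 3 days. Bmp4, an endogenous BMP ligand, was at 113 and 120.1 CPM at day 3, 38.6, 47.5, 26.9 and 32.1 CPM in the early and 8.52, 9.26, 9.41 and 9.497 CPM in the late libraries. It was thus higher at day 3 than in any pool library and had dropped to 11.1 and 11.99 CPM by day 5. Its log2 fold change was 1.70 (SE 0.09) against the early pool (edgeR adjusted p = 2.19e-11) and 3.66 (SE 0.10) against the late pool (edgeR adjusted p = 3.11e-15). Acvr1, a type I receptor, was at 30.04 ± 1.34 CPM at day 3, 19.4 ± 4.34 CPM early and 14.02 ± 2.79 CPM late. Neo1, the co-receptor neogenin, stood at 191 ± 12.7 CPM against 128 ± 5.36 and 128 ± 25.6 CPM. Bmpr1a, the most abundant receptor per kilobase in the list, was not in the state: it was at 489.7 ± 46.9 CPM at day 3, 322 ± 14.4 CPM early and 820.4 ± 94.2 CPM late, and so lay between the ends. Medians were 0.52 and 0.48 over the 16 ligands, receptors and SMADs tested. Of these, 7 were higher than both pools and 0 lower (all genes: 14.2% and 12.9%). That count was 5 without day 3 replicate 1 and 4 without day 3 replicate 2, and 4 when a trend in gene length was removed.

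Of 17 direct BMP targets tested, 10 were higher at day 3 than in the early pool, while 8 were higher and 8 lower than in the late pool, with medians of 0.48 and 0.18 (all genes: 35.3% higher than early, 38.5% higher and 38.4% lower than late). Id1, an inhibitor of basic helix-loop-helix factors, was at 78.8 and 71.4 CPM at day 3, 37.5, 35.1, 78.3 and 70.9 CPM in the early and 104, 108, 83.4 and 75.8 CPM in the late libraries. The 6 h pair already reached the day 3 level. Id1 was called higher than the early pool and lower than the late pool (log2 fold changes 0.53 and -0.29), so it was no part of the state. Id2, a relative of Id1, was at 282 and 236 CPM at day 3, 72.8, 72.4, 155 and 170.1 CPM early and 314, 327, 132 and 141 CPM late. It passed the rule with 1.25 (SE 0.07) and 0.31 (SE 0.07), yet both day 7 libraries were above day 3, and against day 7 alone the log2 fold change was -0.31. Smad7, an inhibitory SMAD, was at 129 and 139 CPM at day 3, against 64.4, 62.3, 132 and 138 CPM early and 94.98, 99.4, 37.6 and 38.5 CPM late. Its 6 h libraries overlapped with day 3, so its call against the early pool rested on 0 h. Smad6, the other inhibitory SMAD, rose in steps from 12.96 ± 7.52 CPM through 47.4 ± 1.98 CPM to 68.9 ± 11.2 CPM and was outside the state. Atoh8, a BMP-induced helix-loop-helix factor, was at 68.7 and 69.9 CPM at day 3, 12.2, 11.7, 37.4 and 34.9 CPM in the early and 46.9, 56.5, 17.9 and 16.3 CPM in the late libraries. Day 3 was its peak, with 1.74 (SE 0.08) and 1.22 (SE 0.08) on the log2 scale, and day 5 was close at 62.8 and 57.1 CPM. Nog, a secreted BMP antagonist, fell to 0.508 and 0.4605 CPM from 2.203, 2.29, 1.76 and 2.496 CPM and later reached 3.74, 3.89, 6.27 and 5.67 CPM. Thus 4 targets were higher than both pools (Id2, Smad7, Atoh8 and Dlx1) and 1 was lower (Nog), and with the pools taken as plain replicates, which counts the gap between 0 h and 6 h as spread, the 4 became 0.

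Some bone and cartilage factors were also higher at day 3 than at either end. Runx2, the master factor of osteoblasts, was at 38.4 and 46.9 CPM at day 3, 10.1, 13.2, 13.7 and 19.2 CPM early and 13.6, 16.4, 11.6 and 11.6 CPM late. Sox9, the master factor of cartilage, was at 33.2 and 40.9 CPM, against 12.9, 13.7, 11.1 and 14.7 CPM early and 19.5, 20.7, 17.8 and 20.1 CPM late. For both genes the 2 day 3 libraries were above all 8 pool libraries. Log2 fold changes were 1.62 (SE 0.18) and 1.69 (SE 0.18) for Runx2 and 1.495 (SE 0.16) and 0.92 (SE 0.16) for Sox9. At day 5 the mean of Runx2 was down to 27.6 CPM, while that of Sox9 was 35.7 CPM against 37.0 CPM at day 3. Of 12 bone and cartilage genes tested, 5 were higher than both pools and 0 lower (all genes: 14.2% and 12.9%). Spp1 and Atf4 are among the 5. Only 12 of 28 genes on that list passed the filter, so the count speaks for these 12 alone. Alpl, the alkaline phosphatase of bone cells, had 3 counts in the early pool and 469 at day 3, a ratio of 321 with a 95% counting interval of 109 to 1.56e+03, but its difference from the late pool, -0.18 (SE 0.17), did not pass (edgeR adjusted p = 0.369).

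Sterol synthesis had the largest share of lowered genes among the lists with at least 15 tested members. Of 23 genes for cholesterol synthesis and uptake tested, 19 were lower than both pools and 0 higher (all genes: 12.9% and 14.2%). Their median log2 fold changes were -1.20 and -2.32. Hmgcs1, the synthase that makes HMG-CoA, named here after its values were seen, was at 65.9 and 58.5 CPM at day 3, 115, 167, 122 and 173 CPM early and 1301, 1188, 1216 and 1263 CPM late. The day 3 pair lay below all 8 pool libraries, and Hmgcs1 rose well past its start after day 3, as its log2 fold change of -4.32 against the late pool shows beside -1.22 against the early one. Msmo1, a sterol C4 oxidase, had 102 ± 19.1, 44.4 ± 3.47 and 174 ± 16.9 CPM. Sqle, the squalene epoxidase, was 1 of the 4 outside the state, at 116 ± 15.1 CPM at day 3 and 140.3 ± 17.1 CPM early, a difference of -0.27 (SE 0.12) that did not pass (edgeR adjusted p = 0.071).

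The promoter of Hmgcs1 carries a match to the sterol element read by SREBP factors, and it is shown because it is the only member of the list with one. RefSeq windows from 250 bases before to 50 bases after a gene start (GRCm38.p6, the build also called mm10) were matched by gene identifier to 10038 tested genes and to 16 of the 23 sterol genes. The motif TCACNCCAC, searched on both strands, was found for 1 of the 16 and for 1.34% of the tested genes with a window. Capitals mark the match, which starts 137 bases before the gene start, in chr13:119690154-119690282 on the plus strand.
Hmgcs1: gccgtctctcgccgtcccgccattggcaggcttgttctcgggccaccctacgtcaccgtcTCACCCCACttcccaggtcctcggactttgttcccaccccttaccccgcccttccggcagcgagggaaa

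Fatty acid synthesis dipped in part. Of 23 tested genes that build fatty acids and triglycerides, 9 were lower than both pools and 1 higher (all genes: 12.9% and 14.2%). Fasn, the fatty acid synthase, was at 172 and 179.6 CPM at day 3, 503, 528, 533 and 520.2 CPM early and 4059.8, 4084, 6676 and 5565 CPM late, so both day 3 libraries were the lowest of all 12. Elovl6, which lengthens fatty acids, was at 56.9 ± 15.7 CPM at day 3 against 126 ± 10.2 and 131 ± 46.7 CPM. Scd2, a fatty acid desaturase, was at 1133 and 813 CPM at day 3 and 1284, 1593, 1264 and 1614 CPM early, and its call against the early pool was lost without day 3 replicate 2 (log2 fold change -0.35). Against the early pool alone, 10 of the 23 were higher and 10 lower (all genes: 35.3% and 36.7%). Scd1, the main stearoyl-CoA desaturase of fat cells, went from 318 ± 76.2 to 921 ± 275 CPM and on to 67672 ± 30565 CPM. Acsl4, which activates long polyunsaturated fatty acids, was the 1 higher than both pools, at 547 ± 79.3 CPM against 309.7 ± 33.4 CPM early and 176 ± 27.4 CPM late.

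Most glycolysis genes were lower at day 3 than at either end. Of 25 genes for glycolysis and the response to low oxygen tested, 15 were lower than both pools and 1 was higher. Among all genes 12.9% were lower and 14.2% higher, and the medians of the list were -0.77 and -2.23. Ldha, which makes lactate, was at 365 and 344 CPM at day 3, 1287, 1355, 1338 and 1336 CPM in the early and 3221, 2713, 3351 and 3304 CPM in the late libraries. No pool library reached down to the day 3 pair, and its log2 fold changes were -1.91 (SE 0.08) and -3.15 (SE 0.09). Tpi1, the triose phosphate isomerase, was at 166 ± 24.6 CPM against 499 ± 19.02 and 1281 ± 176 CPM. Pkm, the pyruvate kinase and the most abundant member per kilobase with 339 CPM, was at 881 ± 96.9 CPM against 2352 ± 49.2 and 2974 ± 206 CPM. Aldoa, the muscle-type aldolase, was at 573 ± 50.6 CPM against 989 ± 8.72 and 5091 ± 384 CPM. Egln3, an oxygen-sensing hydroxylase that is itself induced by low oxygen, fell to 4.19 and 3.42 CPM from 17.8 ± 3.52 CPM and rose to 194, 134, 539 and 506 CPM late. Gapdh, which has many near-identical pseudogene copies, was counted at only 1.03 CPM at day 3 and is uncertain, and it was singled out after its values were seen.

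Genes of mitochondrial respiration were mostly lower as well. Of 26 oxidative phosphorylation genes tested, 19 were lower than both pools and 0 higher (all genes: 12.9% and 14.2%). Their median was -0.35 against the early pool and -2.23 against the late pool. Ndufb8, a subunit of complex I, was at 89.7 and 73.5 CPM at day 3, 175, 158, 178 and 156 CPM early and 549, 528, 515 and 476 CPM late. Uqcrc1, of complex III, was at 109 ± 3.21 CPM at day 3 against 207 ± 8.96 and 487 ± 39.5 CPM. Cyc1, cytochrome c1 of the same complex, was at 62.02 ± 6.52 CPM against 107 ± 5.06 and 349 ± 36.6 CPM. In all 3 the day 3 pair was below the 8 pool libraries. Atp5b, a subunit of ATP synthase and the most abundant member per kilobase, was at 1232 ± 1.23 CPM against 1792 ± 34.2 and 4201 ± 289 CPM. Cox4i1, of complex IV, was at 305 ± 20.4 CPM at day 3 and 292 ± 9.02 CPM early, a difference of 0.06 (SE 0.07) that did not pass (edgeR adjusted p = 0.452). These genes are short, with a median length of 1240 bases against 2890 for all tested genes, and short genes were more often lower at day 3; the part of length in their count was not tested beyond the fit with a length trend removed, where 15 were lower.

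**Figure D3:**
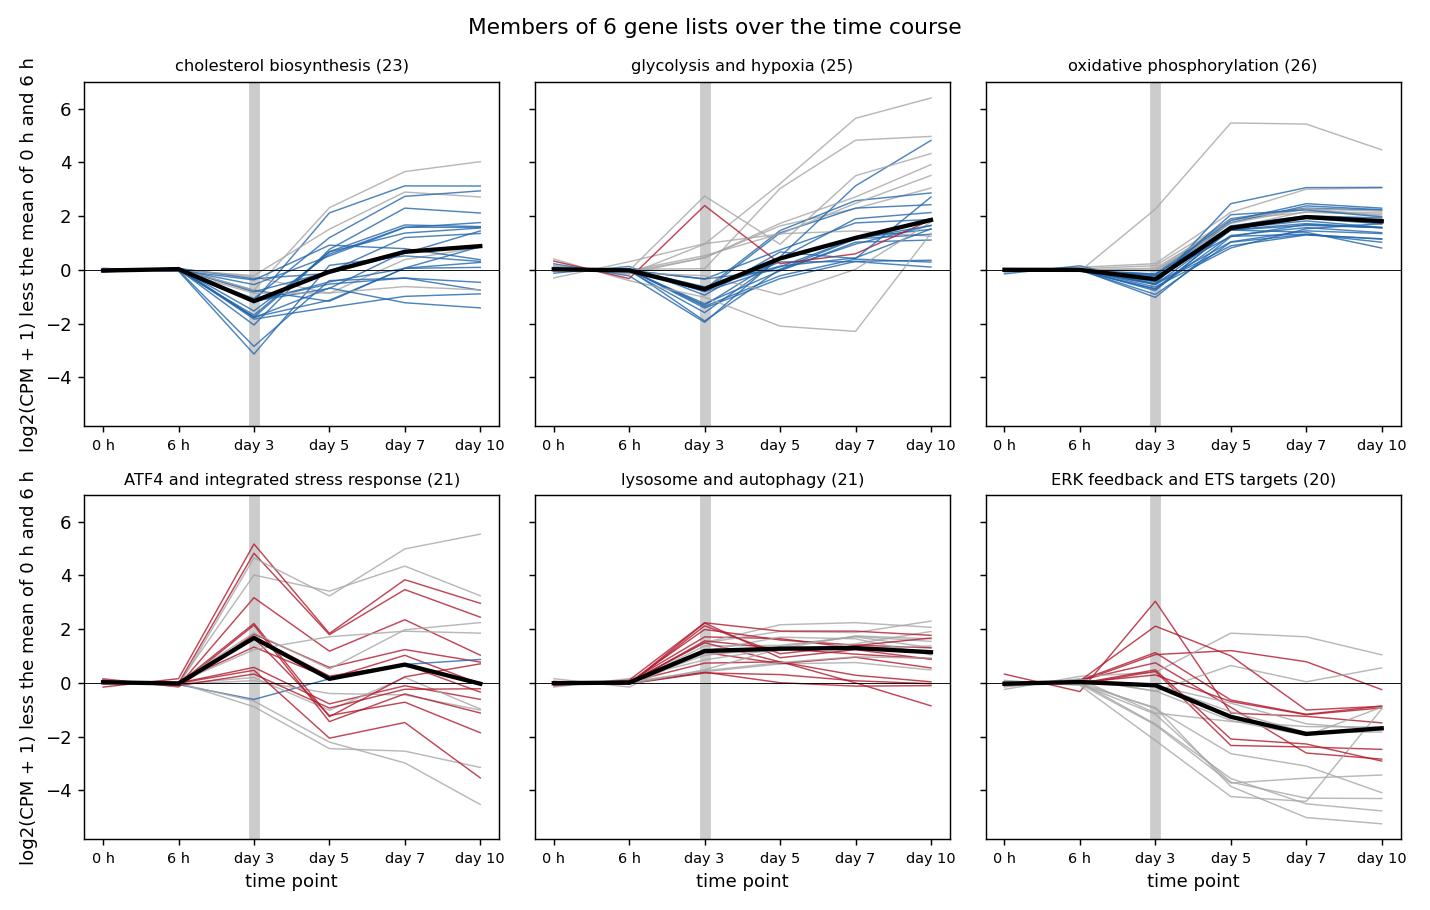
Lines are the tested members of 6 gene lists over the 6 time points, as log2(CPM + 1) less the mean of 0 h and 6 h, with members of the state in red (higher) or blue (lower), other members in grey, the list median in black and day 3 shaded. Sterol, glycolysis and respiration genes dip at day 3 and climb afterwards, ATF4 genes peak, lysosome genes rise and level off, and ERK genes fall after day 3.

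Many genes of the integrated stress response peaked at day 3. Of 21 ATF4 targets and regulators tested, 12 were higher than both pools and 1 was lower (all genes: 14.2% and 12.9%). The medians were 1.68 and 0.94, and the 12 all lay above all 8 pool libraries. Ddit3, the stress factor CHOP, was at 255 and 345 CPM at day 3, 9.62, 9.64, 9.696 and 9.12 CPM in the early and 121, 109.9, 61.5 and 51.4 CPM in the late libraries. It fell to 36.7 and 34.2 CPM at day 5 before a smaller second rise at day 7. Its log2 fold change was 4.98 (SE 0.12) against the early pool (edgeR adjusted p = 2.73e-13) and 1.89 (SE 0.10) against the late pool (edgeR adjusted p = 9.40e-10). Trib3, a pseudokinase induced by CHOP, took the same course with 209 and 293 CPM at day 3, 5.21, 5.19, 6.898 and 6.51 CPM early and 105, 91.2, 64.1 and 43.4 CPM late. Atf4 itself rose from 361 ± 21.7 to 912 ± 29.7 CPM, and the late pool held 701, 773, 374 and 332 CPM. Slc7a11, the cystine transporter, was at 116 ± 2.75 CPM at day 3 against 26.01 ± 6.24 and 15.03 ± 4.53 CPM. Sesn2, a stress-induced inhibitor of mTORC1 that is listed under p53 targets too, had 11.3 ± 1.65, 42.6 ± 9.65 and 23.9 ± 4.67 CPM. Nupr1, a stress-induced chromatin protein, was at 97.5 ± 11.8 CPM at day 3 and 116 ± 13.9 CPM late, so it stayed up and was outside the state. The C/EBP-ATF motif TGATGNAAT, on either strand, was present in the promoter window of 1 of 18 members with a window, Nupr1, and of 0.528% of tested genes.

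Of 19 chaperones and other genes of the unfolded protein response tested, 7 were lower than both pools and 2 higher (all genes: 12.9% and 14.2%). Against the early pool alone, 14 were lower and 4 higher (all genes: 36.7% and 35.3%). Xbp1, a factor of the unfolded protein response, fell to 74.2 and 64.01 CPM from 144, 147, 168 and 172 CPM and rose to 213, 195, 333 and 324 CPM late. Creld2, a secreted protein of stressed endoplasmic reticulum, was at 19.7 ± 0.378 CPM at day 3 against 67.1 ± 2.603 and 76.1 ± 9.901 CPM. Herpud1, which takes part in the disposal of misfolded proteins, was 1 of the 2 higher than both pools, with 162 ± 2.93 CPM at day 3 against 67.8 ± 7.31 and 75.8 ± 28.3 CPM. Hspa5, the main chaperone BiP, was at 1165 and 1702 CPM in the day 3 libraries and 1420.4 ± 103 CPM early, a difference of 0.01 (SE 0.12) that did not pass (edgeR adjusted p = 0.928).

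Lysosome and autophagy genes rose from the early pool without exception among those tested, 21 of 21 (all genes: 35.3%). Of them, 11 were also higher than the late pool and 8 were lower than it (all genes: 38.5% and 38.4%). The number lower than both was 0, and the medians were 1.24 and 0.35. Among all genes, 14.2% were higher than both pools and 12.9% lower. Sqstm1, the autophagy receptor p62, was at 1724 and 1774 CPM at day 3, 371, 395, 367 and 357 CPM early and 889, 867, 719 and 655 CPM late. The day 3 libraries lay above all others, with log2 fold changes of 2.23 (SE 0.06) and 1.17 (SE 0.06). Gla, alpha-galactosidase A, was at 35.6 and 29.1 CPM at day 3, 17.8, 19.3, 18.7 and 20.1 CPM early and 16.8, 21.4, 10.2 and 9.88 CPM late, and stayed at 33.5 and 33.4 CPM at day 5. Ctsd, the protease cathepsin D and the second most abundant member per kilobase, rose from 465 ± 44.1 to 1318 ± 102 CPM and on to 2071 ± 152 CPM, so it was outside the state.

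The lysosomal E-box TCACGTGA, which reads the same on both strands, is bound by TFEB, a regulator of lysosome genes. It lay in the window of 4 of 15 lysosome genes with a window (26.7%) and of 2.21% of tested genes with one, and the 4 are shown to compare the placement of the motif. Gla alone of the 4 was higher than both pools; Ctsa, cathepsin A, and Mcoln1, a lysosomal calcium channel, stood at 259 ± 15.3 and 29.7 ± 1.47 CPM at day 3 and at 288 ± 47.7 and 46.1 ± 4.502 CPM late. Among genes of the state with a window, 3.03% of those higher and 1.13% of those lower carried it. Capitals mark each match. The stretches lie at chrX:134601166-134601255 on the minus strand, chr2:164833700-164833822 on the plus strand, chr7:142387859-142387986 on the minus strand and chr8:3500413-3500540 on the plus strand, in the order printed. The matches start 228 and 195 bases before the gene start in Gla, 13 bases before and 4 bases after it in Ctsa, 99 bases before it in Ctsd and 46 bases before it in Mcoln1.
Gla: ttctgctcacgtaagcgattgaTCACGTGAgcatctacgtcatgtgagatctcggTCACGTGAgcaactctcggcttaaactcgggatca
Ctsa: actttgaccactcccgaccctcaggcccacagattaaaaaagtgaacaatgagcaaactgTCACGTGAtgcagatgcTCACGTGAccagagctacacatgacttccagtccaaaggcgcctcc
Ctsd: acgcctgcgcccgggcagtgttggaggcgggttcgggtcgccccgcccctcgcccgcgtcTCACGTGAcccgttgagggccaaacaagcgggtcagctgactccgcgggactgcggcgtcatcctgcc
Mcoln1: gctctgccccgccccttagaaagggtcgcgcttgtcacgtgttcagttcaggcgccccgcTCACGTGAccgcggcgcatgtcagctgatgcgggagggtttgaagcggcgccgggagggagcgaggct

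Windows of the BMP targets were searched for the SMAD site GGCGCC in the same way. It was present for 4 of 11 targets with a window (Gata2, Gata3, Id2 and Id4), for 24.5% of tested genes, for 25.8% of genes higher than both pools and for 24.8% of those lower, so its share in the state was close to that of all tested genes.

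Feedback genes of the growth factor pathway through ERK were higher at day 3 than in the late pool in 18 of 20 tested (all genes: 38.5%). Of these 20, 8 were higher than both pools and 0 lower (all genes: 14.2% and 12.9%). The medians were -0.09 and 2.39. Spry1, an inhibitor of receptor tyrosine kinase signalling, was at 88.98 and 114 CPM at day 3, 13, 16.3, 7.03 and 11.2 CPM in the early and 4.15, 4.32, 4.21 and 2.76 CPM in the late libraries. The day 3 pair was far above all others, and at day 5 the gene was at 4.04 and 5.43 CPM. Its log2 fold change was 3.12 (SE 0.16) against the early pool (edgeR adjusted p = 3.45e-09) and 4.73 (SE 0.19) against the late pool (edgeR adjusted p = 1.75e-10). Egr1, an immediate early factor, rose to 24.4 and 31.8 CPM from 5.78 ± 1.32 CPM and was at 2.49 ± 0.261 CPM late. Its relative Egr2, counted among the largest changes and not in the list, was at 19.9 and 12.3 CPM at day 3, with no pool library above 2.01 CPM. Nr4a1, an immediate early orphan receptor likewise outside the list, was at 32.8 and 19.2 CPM at day 3, 1.85 ± 0.392 CPM early and 3.002 ± 0.848 CPM late. Etv1, an ETS factor, had 1.98 ± 0.276, 5.49 ± 0.0463 and 0.484 ± 0.249 CPM. Not all members followed: Ccnd1, the G1 cyclin D1, fell from 1314 ± 35.5 to 453 ± 16.5 and 52.7 ± 10.3 CPM, and Emp1, a membrane protein, from 1554 ± 64.9 to 525 ± 60.2 and 138 ± 7.98 CPM. Myc, a growth factor-induced transcription factor, was at 99.5 and 149.5 CPM at day 3 against 89.9, 85.99, 87.3 and 84.2 CPM early, and the call was lost without day 3 replicate 2 (log2 fold change 0.20).

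Of 20 early adipogenic factors tested, 16 were higher at day 3 than in the early pool and 2 lower (all genes: 35.3% and 36.7%). Against the late pool, 12 were lower and 5 higher (all genes: 38.4% and 38.5%). The medians were 1.44 and -1.39. Of the 20, 4 were higher than both pools and 1 was lower (all genes: 14.2% and 12.9%). Klf4, an early factor of the programme, was at 23.2 and 41.8 CPM at day 3, 7.34, 6.68, 6.96 and 6.62 CPM early and 3.88, 1.79, 4.93 and 2.99 CPM late, and had fallen to 1.37 and 1.43 CPM at day 5. Ebf1, an early B cell factor that acts in fat precursors, was at 288 ± 24.4 CPM at day 3 against 79.5 ± 11.5 and 158 ± 16.2 CPM. Klf9, a glucocorticoid-responsive factor, had 55.4 ± 7.48, 203 ± 18.4 and 141 ± 8.85 CPM. Cebpb, which starts the C/EBP cascade, rose to 154 ± 8.08 CPM from 31.95 ± 3.62 CPM and held 184 ± 23.6 CPM late, so it stayed up rather than peaked. Pparg was on its way, at 46.1 and 25.3 CPM at day 3, 0.147, 0.124, 1.76 and 2.33 CPM early and 254, 239, 336 and 342 CPM late. Of the 23 white adipocyte markers, 0 were higher than both pools and 1 was lower. Lpl, the lipase that frees fatty acids for uptake, was at 331 and 295 CPM at day 3, 23.4, 28.6, 19.9 and 23.7 CPM early and 3245, 3335, 4128 and 4007 CPM late, with log2 fold changes of 3.71 (SE 0.08) and -3.55 (SE 0.10). Plin4, a lipid droplet coat protein, was at 285 and 185 CPM at day 3 against 17.4 ± 6.53 and 4421 ± 707 CPM, so both genes lay between the ends. Wnt5a, an inhibitor of fat cell formation, was at 2.86 and 5.66 CPM at day 3, 8.15, 6.31, 9.31 and 8.36 CPM early and 6.78, 6.11, 8.601 and 6.05 CPM late, and its calls were lost without day 3 replicate 1 (log2 fold changes -0.49 and -0.27).

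Of 12 progenitor markers tested, 5 were higher and 5 lower at day 3 than in the early pool. Of 13 markers of the mesenchymal state, 4 were higher and 6 lower. Among all genes tested, 35.3% were higher and 36.7% lower in that comparison. Ly6a, the progenitor surface marker Sca-1, was at 195 and 174 CPM at day 3, 99.6, 103, 89.7 and 102 CPM in the early and 18.5, 19.7, 38.8 and 38.2 CPM in the late libraries. Pdgfrb, a receptor of pericytes and fibroblasts, was at 528 ± 32.6 CPM against 318 ± 49.2 and 175 ± 48.6 CPM, and Prrx1, a mesenchymal homeobox factor, at 49.4 ± 4.97 CPM against 29.7 ± 4.99 and 22.99 ± 2.296 CPM. These were the 3 of the 12 that were higher than both pools, and 0 were lower (all genes: 14.2% and 12.9%). Pdgfra, a receptor of fat and fibroblast precursors, rose from 17.6, 21.9, 20.3 and 24.8 CPM to 185 and 132 CPM by day 3 and stayed up, at 164, 197, 128 and 155 CPM late. It stood 2.90 (SE 0.17) above the early pool, and its difference from the late pool, -0.02 (SE 0.16), did not pass (edgeR adjusted p = 0.929). Zeb1, a factor that drives the mesenchymal state, was at 161 and 149 CPM at day 3, 92.5, 95.8, 83.9 and 102 CPM early and 111, 114, 109 and 105 CPM late, so the day 3 pair was the highest. Of 10 epithelial markers tested, 2 were lower than both pools and 0 higher (all genes: 12.9% and 14.2%). Krt8, a keratin of simple epithelia, was at 63.5 and 45.1 CPM at day 3 against 547, 559, 493 and 472 CPM early and 164, 180.4, 233 and 210.2 CPM late, and Krt14, a keratin of basal cells, at 28.8 and 15.5 CPM against 123 ± 20.5 and 650.0 ± 20.99 CPM. Other keratins fell on past day 3: Krt7 was at 190.5 ± 56.4 CPM at day 3, 814 ± 40.1 CPM early and 6.84 ± 2.84 CPM late. Krt18, the partner of Krt8, was at 48.9 ± 11.1 CPM at day 3, 159.8 ± 14.6 CPM early and 36.3 ± 8.46 CPM late.

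Cell cycle genes were low at day 3 and mostly stayed low or fell further, so few belonged to the state. All 24 mitosis genes and all 26 DNA replication genes tested were lower at day 3 than in the early pool (all genes: 36.7%). Of these, 4 and 3 were lower than the late pool too, while 7 and 16 were higher than the late pool. Cenpa, the histone of the centromere, was at 2.36 ± 0.0129 CPM at day 3, 103 ± 6.99 CPM early and 8.41 ± 1.07 CPM late. Ccne2, the S phase cyclin E2, was at 6.11 ± 0.289 CPM against 129 ± 7.13 and 24.7 ± 8.13 CPM. Cdk1, the kinase of mitosis, fell to 9.84 and 7.83 CPM from 292 ± 10.96 CPM and stood at 16.2, 13.95, 12.7 and 17 CPM late. Cdkn1b, the cell cycle inhibitor p27, was higher than both pools, at 173 and 154 CPM at day 3 against 76.1, 80.4, 82.1 and 83.7 CPM early and 102, 101, 105 and 105 CPM late. Of 15 genes for cell cycle inhibition and quiescence tested, Cdkn1b was the only 1 higher than both pools. The inhibitor genes Cdkn2c and Cdkn2d were the 2 lower than both. Of 18 p53 targets tested, 6 were higher and 1 lower than both pools (all genes: 14.2% and 12.9%). Trp53inp1, a p53-induced stress protein, was at 262 and 270.0 CPM at day 3, 19.1, 25.2, 18.4 and 23.01 CPM early and 103, 103, 103 and 107 CPM late (log2 fold changes 3.63 (SE 0.10) and 1.35 (SE 0.09)). Fas, a death receptor, was at 38.2 ± 10.8 CPM at day 3 against 14.01 ± 3.43 and 13.2 ± 2.18 CPM.

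Signals to neighbouring cells and hormone pathways held further members. Of 9 complement genes tested, 4 were higher than both pools and 0 lower (all genes: 14.2% and 12.9%). C1s1, a protease of the first complement component, was at 83.3 and 74.7 CPM at day 3, 0.2203, 0.989, 0.325 and 0.597 CPM in the early and 9.83, 12.7, 12.4 and 16.8 CPM in the late libraries. C1ra, its partner, was at 33.8 ± 0.337 CPM against 7.27 ± 1.11 and 7.02 ± 0.647 CPM. Both have near-identical neighbouring copies in the mouse genome, so the split of reads between copies is uncertain. Masp1, a protease of the lectin pathway, was at 127 ± 6.798 CPM against 16.7 ± 3.33 and 29.7 ± 15.4 CPM and was still at 99.8 and 114 CPM at day 5. Igf1, the insulin-like growth factor, fell to 1.97 and 1.12 CPM from 7.42, 7.23, 6.12 and 12.6 CPM and later rose to 219, 201, 273 and 293 CPM. Its receptor gene Igf1r did the reverse, with 252 ± 33.01 CPM at day 3, 145 ± 10.3 CPM early and 52.6 ± 2.32 CPM late. Slit2, an axon guidance ligand, was at 54.7 and 57.9 CPM at day 3, 15 ± 0.601 CPM early and 4.33 ± 0.247 CPM late. Nr1d2, a repressor of the circadian clock, was at 160.4 ± 6.73 CPM against 49.5 ± 4.205 and 79.6 ± 10.4 CPM. It was 1 of 5 among 18 circadian, FoxO and glucocorticoid genes that were higher than both pools, with 0 lower (all genes: 14.2% and 12.9%). Interferon genes gave 0 higher and 2 lower of 27 tested (all genes: 14.2% and 12.9%). Against the early pool 12 of the 27 were higher and 4 lower (all genes: 35.3% and 36.7%). Against the late pool 1 was higher and 20 were lower (all genes: 38.5% and 38.4%).

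**Figure D4:**
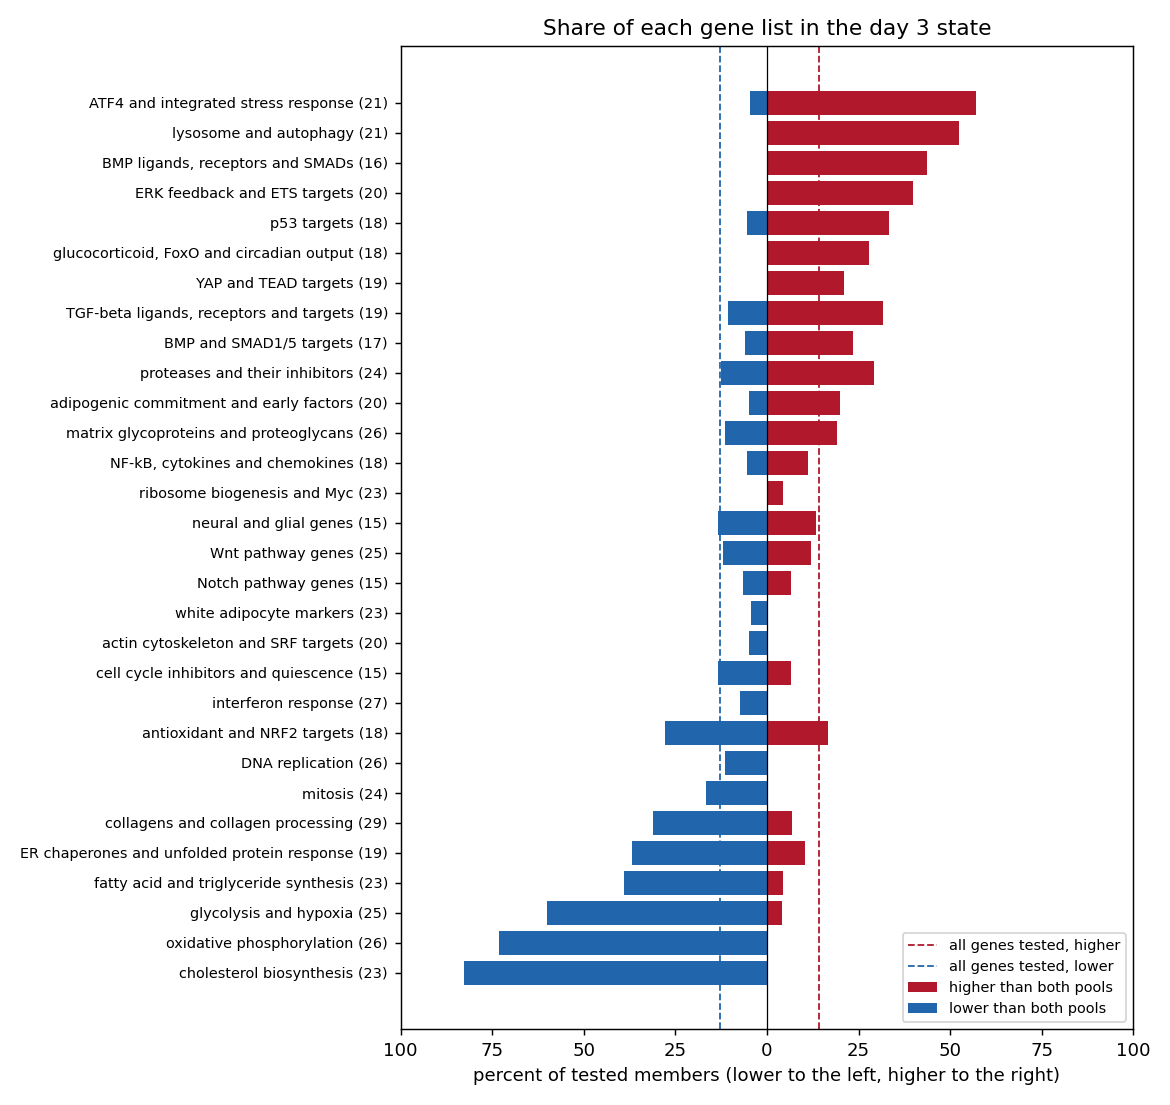
Bars show the percent of the tested members of each list that were higher (red, right) or lower (blue, left) at day 3 than both pools, for lists with at least 15 tested members (number in brackets), and dashed lines show all tested genes (14.2% and 12.9%). Sterol, respiration and glycolysis lists reach furthest left and the ATF4 and lysosome lists furthest right.

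Summed markers of leukocytes and endothelium were no higher at day 3 than in the highest library of either pool. Only 4 of 15 listed leukocyte and macrophage markers passed the filter, so the check is narrow. These 4 summed to 9.01 and 10.4 CPM in the day 3 libraries, to 11.2 to 14.7 CPM early and to 8.88 to 11.4 CPM late. The 6 endothelial markers tested, of 14 listed, summed to 19.6 and 19.9 CPM at day 3. That was below the 27.6 to 34.4 CPM of the early and the 22.7 to 26.0 CPM of the late libraries. Cdh5, a defining endothelial marker, had 0 counts at day 3. Single members were higher than both pools, namely Coro1a of the leukocyte and Tek of the endothelial list, and Ptprc and Adgre1 were not analysed here. In bulk RNA, fewer cells of a type and less RNA per cell cannot be told apart.

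Long genes were more often higher at day 3 and short genes more often lower. The median length was 3631 bases for genes higher than both pools, 2419 bases for those lower and 2890 bases for all tested. From the shortest to the longest of 5 equal groups of genes by length, the share higher went from 7.14% to 22.1% and the share lower from 18.3% to 8.16%. With a smooth trend in length removed, the shares lay between 12.4% and 14.2% and between 12.3% and 14.4%, and 1514 of the 1808 and 1434 of the 1639 genes were called the same way. Library makeup moved at day 3 too: protein-coding genes took 93.6% and 93.5% of its counts against 94.7% to 95.4% elsewhere, and Malat1, a nuclear long noncoding RNA singled out after its values were seen, took 3.01% and 3.02% against 0.520% to 0.564% early and 2.39% to 2.49% late. The part of RNA quality or of library preparation in the length relation was not tested. Under upper-quartile scaling, which moved the median of all genes by 0.11 and 0.12 on the log2 scale, 2333 genes were higher and 1275 lower than both pools, so 64.7% of the state was higher in place of 52.5%.

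**Figure D5:**
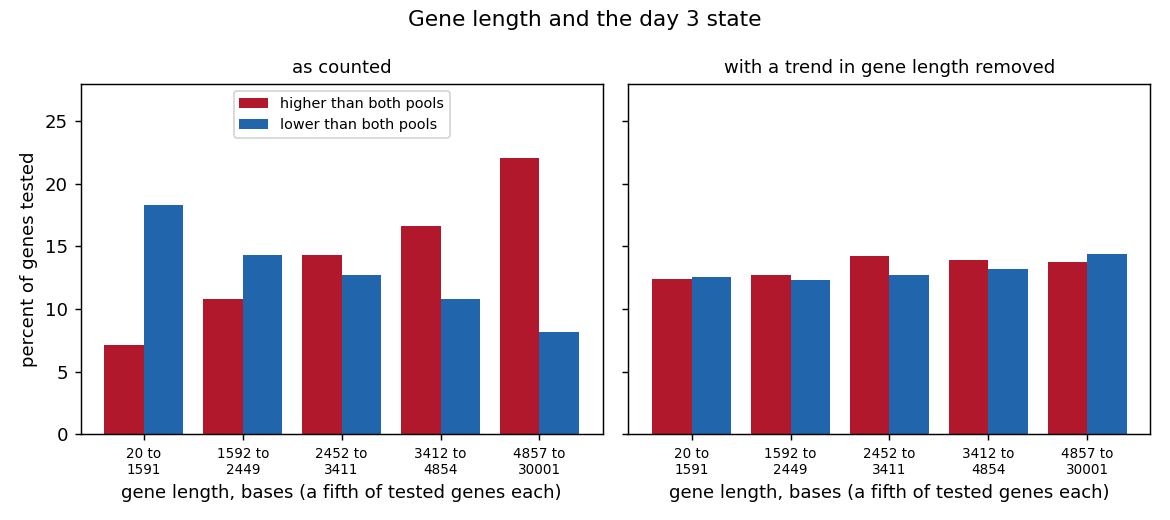
Bars show the percent of tested genes higher (red) or lower (blue) than both pools at day 3 in each of 5 groups of genes by length, as counted (left) and with a trend in gene length removed (right). The share higher climbs from 7.14% to 22.1% with length as counted and lies between 12.4% and 14.2% once the trend is removed.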

How the data were processed

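RNA of MTΔECad cells was sequenced at 6 time points with 2 libraries each. The authors deposited 1 table of raw read counts per gene and library, with gene lengths in bases as another deposited column. Total RNA (200 ng) was prepared with a stranded kit and poly-A+ RNA was sequenced, per the labels' protocols. The tool and build listed were STAR, an aligner, and mm10, per the submitters' processing notes. Not given in the sources used here were the aligner version, the annotation, the counting tool and its use of strand. Of 17090 gene identifiers, 17045 were named from RefSeq and 4 from GENCODE.

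A model in edgeR 4.0.16 (R 4.3.3) was fitted to the counts, with a mean per time point over 12 libraries (6 residual degrees of freedom), TMM scaling and filterByExpr (minimum count 10, total 15), which left 12740 genes and removed 4350. Day 3 was compared with the mean of the 0 h and 6 h terms and, separately, with the mean of the day 7 and day 10 terms, by robust quasi-likelihood F tests with Benjamini-Hochberg adjustment over all genes. Fold changes used a prior count of 0.125. P-values measure the spread between 2 independent experiments, pooled over time points (common biological coefficient of variation 0.0737). Where a group had 0 counts, a floor of 3 counts over the group was used, and intervals on 1 to 3 counts are exact and cover counting error only.

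The members, the 44 gene lists and the tests were chosen with earlier results of these data known. Named genes are 50 key genes (47 in the table), the 20 highest and 20 lowest by the smaller of the 2 changes (at least 10.0 CPM in the higher group, day 3 outside all 8 pool libraries), and, from each list, 3 called members ranked by that same change and the 2 of highest CPM per kilobase. Other names were chosen after their values were seen: Hmgcs1, Gapdh, Malat1, Nupr1, Ctsa, Mcoln1 and Cdh5. The promoter motifs TCACNCCAC, TGATGNAAT and TCACGTGA were added after the data were seen. Alternatives were other scaling, filters, DESeq2 1.42.0, a replicate block, other pools of time points, a stricter threshold, each library left out, and, added after seeing the data, a lowess trend in gene length (span 0.3) as an offset. The procedure was tested on simulated data. Key genes outside the table were not analysed here.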

Additional observations from a re-analysis of the deposited data

How the results depend on the processing

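The counts of genes higher or lower than both pools stayed within 1.5 times the reported ones under every alternative run. Genes higher numbered 1760 with median-of-ratios scaling, 2333 with upper-quartile scaling, 1571 with DESeq2, 1877 without a filter, 1400 with pools as plain replicates, 1342 when each of the 4 end time points had to pass alone and 1706 with the length trend removed. Genes lower numbered 1665, 1275, 1539, 1625, 1512, 1270 and 1661 in the same order. Leaving out 1 library at a time gave 1593 to 1875 genes higher and 1451 to 1668 lower, and 464 to 499 and 305 to 330 with at least a 2-fold change.

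The replicate block gave 1843 genes higher and 1654 lower. Correlations of same-numbered deviations between time points ran from -0.0913 to 0.193. The highest was between 0 h and 6 h, and low values over all genes cannot show that the libraries were unpaired.

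Against day 7 alone, the change of Id2 turned to -0.31, and against 6 h alone that of Smad7 to -0.01, where the library values were as high as at day 3 or higher. The uncalled change of Hspa5 against the early pool ran from -0.29 without day 3 replicate 2 to 0.26 without day 3 replicate 1. With the length trend removed, Id1 against the late pool turned to 0.12 and Nupr1 to 0.27, from -0.29 and -0.25. The calls of Id2, Smad7, Atoh8, Atf4, Myc, Cxcl12, Perp, Dlx1, Gapdh and Lyrm9 were lost with pools as plain replicates, where gaps between time points count as spread. Those of Cxcl12 were also lost without day 3 replicate 1 (0.13), those of Wnt5a without day 10 replicate 1 (-0.56), and those of Per2 and Mgp against day 10 alone (0.35 and 1.54).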
